A study of Mus musculus with 18 samples.

Results

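The 10 genes described here encode myosin light chains of mouse skeletal muscle (Myl1, Myl2, Myl3, Myl4, Myl6, Myl6b, Myl12a, Myl12b and Mylpf) and the kinase that phosphorylates the regulatory light chain of skeletal muscle (Mylk2). They were taken by name as a gene family, with earlier results of these data known, and all 10 are among the 23420 genes of the RNA-seq table. Female C57BL/6J mice aged 2, 20 or 28 months gave hindlimb skeletal muscle, whose poly-A RNA was sequenced as 1 library per mouse, with 3 mice per age and 9 libraries in all. The mice carried no transgene and received no treatment, and age was the only difference between the groups named by the labels. Which hindlimb muscles were taken, or in what proportion, is not given in the sources used here. DNA from the same mice, pooled by age, was also bound to a protein domain that holds methylated CpGs and the captured fragments were sequenced (MBD-seq), with spleen T cells as a comparison tissue.

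Myosin II of muscle is a hexamer of a pair of heavy chains, each of which binds an essential and a regulatory light chain along its lever arm. Fast fibres use Mylpf as the regulatory and Myl1 as the essential light chain, slow fibres and the heart ventricle use Myl2 and Myl3, and Myl4 is the essential light chain of embryonic muscle and the heart atrium. Myl12a and Myl12b are regulatory light chains of nonmuscle myosin, Myl6 is the essential light chain of nonmuscle and smooth muscle myosin, and Myl6b is an essential light chain found in slow muscle and in nonmuscle cells. Calcium-bound calmodulin switches on Mylk2, which phosphorylates the regulatory light chain of fast fibres and potentiates force.

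With age, the light chains of slow fibres rose and those of fast fibres fell, and the nonmuscle regulatory chain Myl12a rose. Of these changes, only the rise of Myl12a was called at both later ages under every setting tried. The fast chain Myl1 missed the threshold at 28 months, and the calls of both fast chains depended on the processing, as given below. Values are normalized counts, that is, reads per gene divided by 1 size factor per library. Changes were fitted with limma on the log2 of the normalized count plus 1, over the 13178 genes with a mean of at least 10, and were called at an adjusted p under 0.05. At 20 months, 3 of the 10 genes were higher than at 2 months (Myl2, Myl3 and Myl12a), against 9.42% of all genes tested, and 2 were lower (Myl1 and Mylpf), against 7.13%. At 28 months, 3 were higher than at 2 months (Myl2, Myl3 and Myl12a), against 7.53%, and 2 were lower (Mylpf and Mylk2), against 6.24%. Over the mean of 20 and 28 months, 3 were higher (Myl2, Myl3 and Myl12a, background 11.2%) and 2 were lower (Myl1 and Mylpf, background 8.92%). These contrasts share the 2-m libraries, so they are not independent of each other. Between 20 and 28 months, 0 of the 10 genes were called by limma, where 0.212% of all genes were higher and 0.167% lower. Without the adjustment, 2 of them (Mylk2 and Myl12a) had p under 0.05 there, and edgeR called 0 and DESeq2 1 (Mylk2). By the study's own rule, a fold change over 2 with an unadjusted p under 0.05, 2 of the 10 differed at 20 months (background 5.17%), 3 at 28 months (background 5.14%) and 0 between 20 and 28 months (background 1.31%). The median log2 change of the 10 genes was 0.20 at 20 months and 0.13 at 28 months, against -0.02 and -0.01 over all genes.

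**Figure D1:**
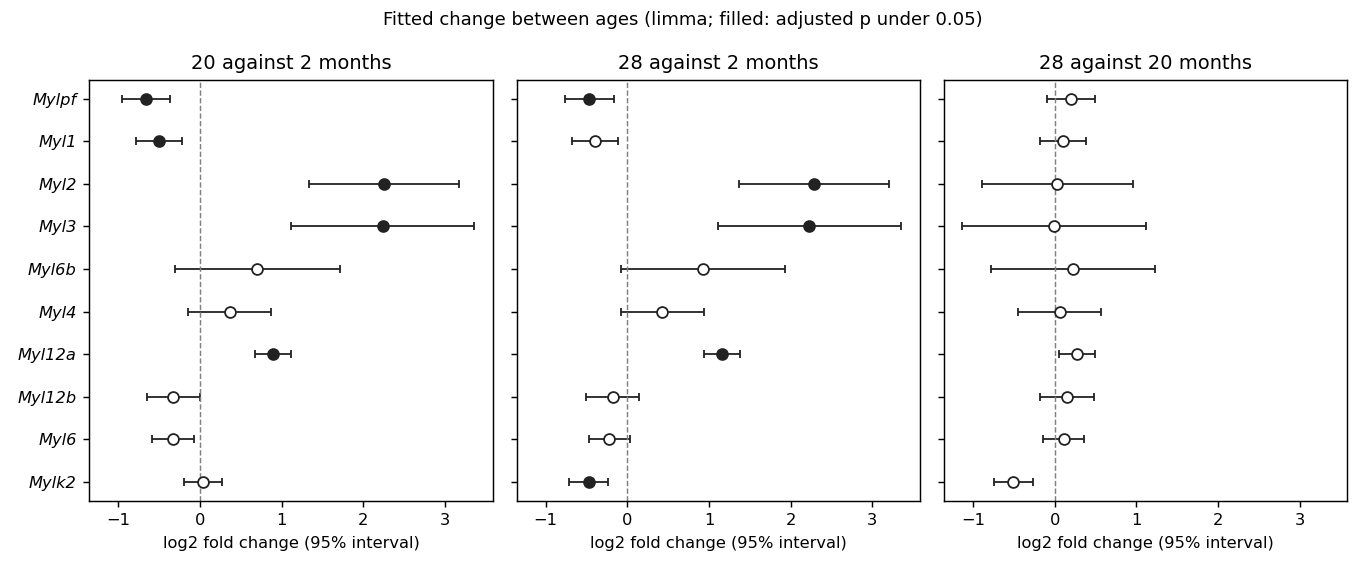
Log2 fold change with its 95% interval (horizontal axis) for each of the 10 genes (vertical axis) in the 3 comparisons of ages, with filled points where the adjusted p was under 0.05. Myl2 and Myl3 lie above 2 in both comparisons with 2-m muscle, Mylpf lies below 0 in both, and no point is filled between 20 and 28 months.

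The libraries held 20203833 to 71115244 reads on genes. The 3 libraries numbered 3, one at each age, stood apart from the other 6: 8.81 to 10.4% of their gene reads were from the ribosomal RNA gene Rn45s, against 24 to 30.4%, and their counts of the titin gene Ttn were 478993 to 845493, against 890402 to 1729030. Whether this difference takes part in any result was not tested, and values without these libraries are given below for the 10 genes, and counts for the gene lists. Without them, 2 of the 10 genes were called at each age: Myl2 and Myl12a at 20 months, and Myl12a and Mylk2 at 28 months. In that fit, of all genes tested, 5.28% were higher and 3.21% lower at 20 months, 3.05% higher and 2.39% lower at 28 months, and 0.0228% higher and 0.0608% lower at 28 than at 20 months. The tissue expressed the genes that define skeletal muscle at high level, with Acta1 at 1006618 to 1406635 and Ckm at 516150 to 732934 normalized counts.

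Per kb of transcript, the fast chains were the most abundant of the 10 genes at every age. Mylpf stood at 413513 ± 37333 normalized counts per kb (SD, n = 3) in 2-m muscle, 261765 ± 26043 in 20-m and 299773 ± 23954 in 28-m muscle, and Myl1 at 246178 ± 29481, 173794 ± 12622 and 186498 ± 13206. In 2-m muscle Mylk2 followed at 12897 ± 2130 normalized counts per kb, and Myl2 (7842 ± 6374) and Myl3 (6549 ± 6332) came after it with ranges that overlapped each other, Mylk2 above them and Myl12a below (3342 ± 516). In 28-m muscle the order was Mylpf, Myl1, Myl2 (30399 ± 1797), Myl3 (21672 ± 1458), Mylk2 (9233 ± 584), Myl12a (7424 ± 165), Myl6 (2289 ± 371), Myl6b (594 ± 79.5), Myl12b (517 ± 38.8) and Myl4 (307 ± 61.1), all per kb. Among neighbours in this 28-m order, the ranges of Myl6b and Myl12b overlapped and those of the others did not. At 20 months the ranges of Myl2 and Myl3 overlapped as well.

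**Figure D2:**
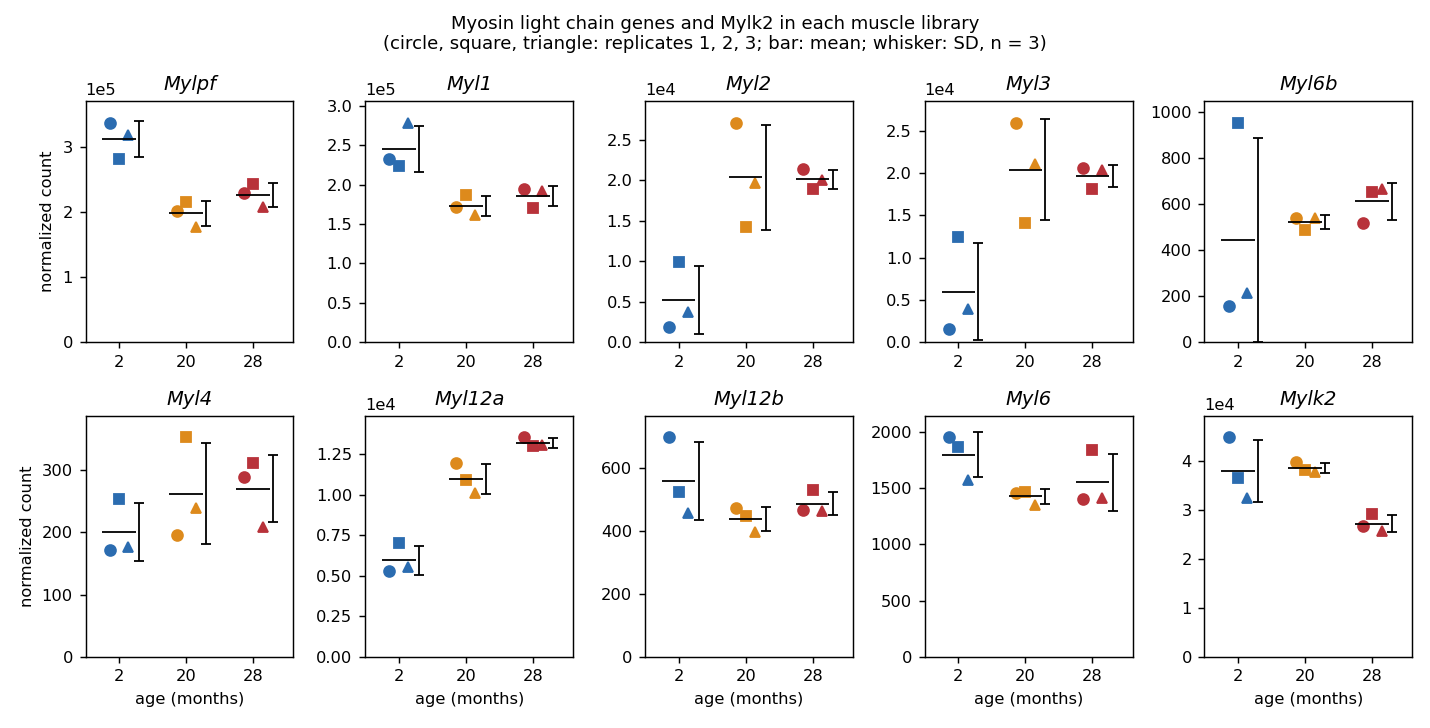
Normalized counts (vertical axes, starting at 0) of the 10 genes in each library against age in months, with circles, squares and triangles for replicates 1, 2 and 3, a bar for the mean and a whisker for the SD (n = 3). In the panels of Myl2, Myl3 and Myl6b, replicate 2 of the 2-m group sits above the other 2-m libraries.

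Mylpf, the regulatory chain of fast fibres, fell with age. Its normalized counts were 336973, 281534 and 318099 in 2-m muscle, 200741, 215556 and 176601 in 20-m muscle, and 229515, 242610 and 206863 in 28-m muscle. All 2-m libraries were above all 20-m and 28-m libraries. The log2 change was -0.66 ± 0.137 (SE) at 20 months (adjusted p = 0.00664) and -0.46 ± 0.137 at 28 months (adjusted p = 0.0413), or 1.58-fold and 1.38-fold lower. Between 20 and 28 months it differed by 0.20 on the log2 scale (95% interval -0.10 to 0.49). Without the libraries numbered 3 the change was -0.57 at 20 months (adjusted p = 0.0572) and -0.38 at 28 months (adjusted p = 0.204), so that both calls were lost. With all 9 libraries and a batch term for those numbered 3, both calls were kept (adjusted p = 0.00246 and 0.0187). Rescaled to the same sum of counts in every library, the adjusted p-values were 0.111 and 0.452, but 0.00155 and 0.0284 when Rn45s was left out of the sum. At 28 months the call was lost under 10 of 22 other settings, among them leaving out 2-m replicate 1 or 3, 20-m replicate 1 or 2, or 28-m replicate 1 or 3 (adjusted p of 0.0244 to 0.154 over the 9 fits without 1 library). In these whole-tissue samples, fewer fibres of a type and less RNA per fibre cannot be told apart. Mylpf lies on chromosome 7 (127211608 to 127214287, plus strand, GRCm38), where 1579 bases of its span are shared with Septin1 on the other strand, and the strand setting of the counting is not stated, so reads of the shared stretch are uncertain.

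Myl1, the essential chain of fast fibres, had 232498, 223892 and 278452 normalized counts in 2-m muscle, 171672, 186063 and 161039 in 20-m muscle, and 194724, 170510 and 191464 in 28-m muscle. As for Mylpf, no 20-m or 28-m library reached the lowest 2-m library. It fell by 0.50 on the log2 scale at 20 months (SE 0.131, adjusted p = 0.0217, 1.41-fold lower). At 28 months the difference was -0.40 with an adjusted p of 0.0630, which missed the threshold, and its exact permutation p was 0.1, the smallest that 3 against 3 libraries allow. Without the libraries numbered 3 the 20-m change was -0.35 (adjusted p = 0.155), and in the libraries numbered 3 alone it was -0.79. With a batch term for those libraries the 20-m call was kept (adjusted p = 0.0111). The call at 20 months was lost under 7 of 22 other settings, which also included leaving out 20-m replicate 1, 20-m replicate 3 or 2-m replicate 3, no filter on low values (adjusted p = 0.102), quantile normalization (adjusted p = 0.0619) and the same sum (adjusted p = 0.333), and it held at the same sum without Rn45s (adjusted p = 0.00991). The 28-m difference was called under 6 of 22 other settings, among them DESeq2 (adjusted p = 0.00174), edgeR (adjusted p = 0.030), a batch term for the libraries numbered 3 (adjusted p = 0.0361), and without 2-m replicate 2 (adjusted p = 0.0437), and the adjusted p ranged from 0.00174 to 0.606 over all 22. Exact copies of 34.6% of the 50-base words of the Myl1 transcript occur elsewhere in the genome, so reads that map to more than 1 place may be missing from its count.

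The slow chains moved the other way. Myl2, the regulatory chain of slow fibres, had 1879, 9942 and 3754 normalized counts in 2-m muscle, 27100, 14217 and 19712 in 20-m muscle, and 21348, 18972 and 20053 in 28-m muscle. Each 20-m and 28-m library was above each 2-m library, and the 28-m libraries were closer to each other than the 2-m or 20-m libraries were. Myl2 rose by 2.25 ± 0.425 on the log2 scale at 20 months (4.77-fold, adjusted p = 0.00399) and by 2.28 ± 0.425 at 28 months (4.87-fold, adjusted p = 0.00397). The difference between 20 and 28 months was 0.03 (95% interval -0.89 to 0.95), an interval wide enough to hold a change of nearly 1 log2 unit in either direction.

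Myl3, the essential chain of slow fibres, had 1529, 12460 and 3871 normalized counts in 2-m muscle, 25975, 14119 and 21113 in 20-m muscle, and 20557, 18173 and 20368 in 28-m muscle. The groups again did not overlap between 2 months and the later ages, although 2-m replicate 2 came close to 20-m replicate 2. The rise was 2.24 ± 0.518 at 20 months (4.72-fold, adjusted p = 0.0119) and 2.23 ± 0.518 at 28 months (4.69-fold, adjusted p = 0.0134). Across the 9 libraries the log2 values of Myl2 and Myl3 had a Pearson r of 0.993, as a description of libraries that differ in age.

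The size of these rises depended on 2-m replicate 2, in which Myl2 was 3.53-fold, Myl3 4.61-fold and Myl6b 5.11-fold above the mean of the other 2-m libraries. The 11 other genes of slow fibres in a fixed list were 2.02-fold to 9.52-fold higher in that library (median 3.54-fold), among them the slow heavy chain Myh7 at 44701 normalized counts against 2773 and 8400. The 11 genes of the fast fibre list were 0.745-fold to 2.19-fold (median 0.887-fold). Without 2-m replicate 2 the change of Myl2 was 2.89 at 20 months and 2.92 at 28 months, and that of Myl3 was 3.02 and 3.01, with adjusted p-values of 1.32e-05 to 3.44e-05. Without 2-m replicate 1, the library with the lowest counts of both genes, Myl2 changed by 1.69 and 1.72 and Myl3 by 1.51 and 1.5, all still called. Without the 3 libraries numbered 3 the change of Myl2 was 2.18 at 20 months (adjusted p = 0.0490) and 2.22 at 28 months (adjusted p = 0.0597), and that of Myl3 was 2.13 (adjusted p = 0.0925) and 2.15 (adjusted p = 0.123). Within the libraries numbered 3 alone the changes were of like size, 2.39 and 2.42 for Myl2 and 2.45 and 2.40 for Myl3. With a batch term for those libraries, Myl2 (adjusted p = 0.00378 and 0.00388) and Myl3 (adjusted p = 0.0111 and 0.0131) stayed called. The call of Myl3 was also lost at 20 months without 20-m replicate 1 and at 28 months without 28-m replicate 1.

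Most other genes of the slow fibre list rose as well. Of 11 tested, 9 were higher at 20 months, against 9.42% of all genes, and 10 at 28 months, against 7.53%, with none lower and a median log2 change of 2.35 and 2.49. The genes not called were Mb, the oxygen store myoglobin, at both ages (adjusted p = 0.0953 and 0.177) and Casq2 at 20 months (adjusted p = 0.0525). Without the libraries numbered 3 the count was 2 of 11 at each age, against 5.28 and 3.05% of all genes, with medians of 2.06 and 2.19. Myh7 was 8.36-fold higher at 20 months (adjusted p = 0.00949) and 9.79-fold at 28 months (adjusted p = 0.00723), and the slow calcium pump Atp2a2 was 6.24-fold and 5.95-fold higher. In the fast fibre list 3 of 11 genes were lower at 20 months (Casq1, Pvalb and Myoz1) and 5 at 28 months (these 3 with Tnnc2 and Actn3), against 7.13 and 6.24% of all genes, with none higher. Without the libraries numbered 3 the count was 2 at each age, against 3.21 and 2.39% of all genes. Pvalb, the calcium buffer of the fastest fibres, was 1.80-fold and 2.04-fold lower. The most abundant fast heavy chain, Myh4, was at 1955532 to 2662071 normalized counts in 2-m muscle and 1664631 to 2161461 in 28-m muscle, with overlapping groups and an adjusted p of 0.538. Of the 9 sarcomeric heavy chains tested, 3 rose at 20 months (Myh2, Myh3 and Myh7) and 4 at 28 months (these with Myh6), and none fell. Of all genes, 9.42 and 7.53% rose. Without the libraries numbered 3, 1 heavy chain rose at each age, against 5.28 and 3.05% of all genes, and a count of 1 gene is no result about the list.

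Slow and fast chains of the same kind were also set against each other within a library, per kb of transcript, which leaves out the scaling between libraries. Myl2 was 0.632, 3.87 and 1.33% of Myl2 and Mylpf together in the 2-m libraries, 13.3, 7.0 and 11.3% in the 20-m libraries, and 9.59, 8.19 and 9.96% in the 28-m libraries. Myl3 was 0.715, 5.74 and 1.5% of Myl3 and Myl1 together at 2 months, 14.2, 7.67 and 12.5% at 20 months, and 10.4, 10.4 and 10.4% at 28 months. For both pairs each later library held a larger slow share than each 2-m library, while the 28-m range fell inside the 20-m range. Among the adult heavy chains, Myh7 made up 0.10 to 1.77% at 2 months, 2.07 to 3.70% at 20 months and 3.55 to 4.51% at 28 months. At 28 months the slow share was 9.24 ± 0.933% for the regulatory and 10.4 ± 0.0471% for the essential chains (SD, n = 3), and every 28-m library had a larger slow share among its light chains than among its heavy chains (4.07 ± 0.486%).

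**Figure D3:**
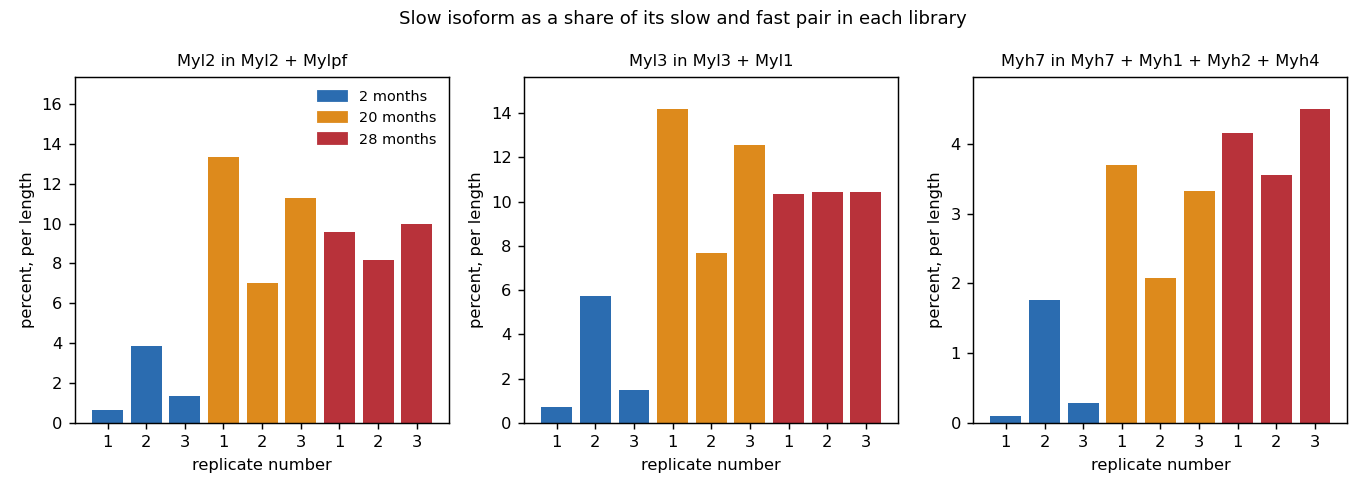
Slow isoform as a percentage of its slow and fast isoforms together, per length, for the regulatory chains, the essential chains and the adult heavy chains (vertical axes), with 1 bar per library. All 20-m and 28-m bars stand above all 2-m bars in each panel, and 2-m replicate 2 is the highest of the 2-m bars.

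Because these 4 genes moved in opposite directions as pairs, the 250 bases before the start of each are shown, 5′ to 3′ on the strand of the gene (RefSeq, GRCm38.p6). Capitals mark matches, on either strand, to the E-box CANNTG bound by the MyoD family, to the MCAT motif CATTCC bound by TEAD factors, and to the MEF2 and CArG motifs. No match overlapped another in these 4 windows.
Mylpf: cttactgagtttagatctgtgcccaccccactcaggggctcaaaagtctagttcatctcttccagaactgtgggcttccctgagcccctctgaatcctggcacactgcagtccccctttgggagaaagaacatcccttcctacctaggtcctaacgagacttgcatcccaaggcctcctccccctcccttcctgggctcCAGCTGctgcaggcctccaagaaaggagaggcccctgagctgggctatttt
Myl1: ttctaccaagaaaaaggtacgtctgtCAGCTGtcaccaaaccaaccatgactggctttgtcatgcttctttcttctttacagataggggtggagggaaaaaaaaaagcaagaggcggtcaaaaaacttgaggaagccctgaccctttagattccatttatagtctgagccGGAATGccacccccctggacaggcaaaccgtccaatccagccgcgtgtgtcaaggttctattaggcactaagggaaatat
Myl2: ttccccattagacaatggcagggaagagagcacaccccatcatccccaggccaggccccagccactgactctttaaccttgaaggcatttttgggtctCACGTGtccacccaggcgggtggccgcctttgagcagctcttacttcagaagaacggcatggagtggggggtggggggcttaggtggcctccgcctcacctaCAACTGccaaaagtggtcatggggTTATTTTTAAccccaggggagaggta
Myl3: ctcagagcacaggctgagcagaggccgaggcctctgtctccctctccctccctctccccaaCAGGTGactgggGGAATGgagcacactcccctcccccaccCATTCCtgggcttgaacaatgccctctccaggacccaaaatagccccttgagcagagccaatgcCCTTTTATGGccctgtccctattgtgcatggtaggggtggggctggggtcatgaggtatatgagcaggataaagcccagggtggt
The windows lie at chr7:127211358-127211607 (Mylpf, plus strand), chr1:66945057-66945306 (Myl1, minus strand), chr5:122100701-122100950 (Myl2, plus strand) and chr9:110763428-110763677 (Myl3, plus strand). An E-box was present in all 4, as in 66.2% of the 32851 promoter windows of the same length. The MEF2 match of Myl2 began 26 bases before the start, and such a match was found in 2.92% of windows. Myl3 held a CArG match that began 85 bases before the start (1.47% of windows) and MCAT matches at 177 and 149 bases, and Myl1 had an MCAT match at 80 bases (12.6% of windows). These are matches of letters and say nothing of which factors bind there.

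Myl6b and Myl4 were low, and the spread of Myl6b was wide at 2 months only. Myl6b had 158, 952 and 214 normalized counts in 2-m muscle, 538, 484 and 539 in 20-m muscle, and 516, 649 and 664 in 28-m muscle. The groups overlapped because of 2-m replicate 2, the library with high slow genes, and the changes of 0.70 (95% interval -0.30 to 1.71) and 0.93 (95% interval -0.08 to 1.93) had adjusted p-values of 0.328 and 0.215. Without that library the change was 1.49 at 20 months (adjusted p = 7.23e-05) and 1.71 at 28 months (adjusted p = 2.33e-05). The call for Myl6b therefore turned on 1 library. Without the libraries numbered 3 the changes of Myl6b were 0.39 (adjusted p = 0.717) and 0.57 (adjusted p = 0.640).

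Myl4 had 172, 254 and 177 normalized counts at 2 months, 196, 353 and 239 at 20 months, and 288, 312 and 209 at 28 months. The ranges overlapped throughout, and the changes of 0.36 (95% interval -0.14 to 0.87) and 0.43 (95% interval -0.08 to 0.94) were not called (adjusted p = 0.316 and 0.260). Without the libraries numbered 3 the changes of Myl4 were 0.33 (adjusted p = 0.498) and 0.52 (adjusted p = 0.335). The 6 heart genes of a fixed list summed to 145 to 264 normalized counts at 2 months, 211 to 398 at 20 months and 269 to 372 at 28 months, most of it from the heavy chain Myh6. Myh6, the only one of the 6 that passed the filter on low values, was at 114 to 250 normalized counts at 2 months and 268 to 370 at 28 months (1.90-fold, adjusted p = 0.0484) and was not called at either age without the libraries numbered 3. The atrial light chain Myl7 was at 0 in all 9 libraries, the atrial peptide Nppa at 0 to 8.81 normalized counts, and the heart factor Tbx5 at 3.52 to 44.8 at 2 months and 0 to 2.76 later. The part of heart genes in the values of Myl4 was not tested. The embryonic heavy chain Myh3 was 407 to 427 normalized counts at 2 months, 1271 to 1756 at 20 months and 2040 to 2614 at 28 months, a rise of 3.71-fold (adjusted p = 5.52e-06) and 5.70-fold (adjusted p = 8.46e-07). Of the 10 genes of immature or denervated fibres, 4 rose at 20 months (Myh3, Chrng, Ncam1 and Musk) and 2 fell (Myod1 and Actc1). At 28 months 6 rose, with Myog and Chrna1 added, and 2 fell. Of all genes, 9.42% rose and 7.13% fell at 20 months, and 7.53% rose and 6.24% fell at 28 months. Between 20 and 28 months 1 of the 10 was higher, against 0.212% of all genes. Chrng was near the floor at 2 months, at 0 to 8.81 normalized counts. Without the libraries numbered 3, 2 rose and 2 fell at 20 months, against 5.28 and 3.21% of all genes. At 28 months 4 rose and 2 fell in that fit, against 3.05 and 2.39%, and 0 were called between 20 and 28 months. The difference between the changes of Myl4 and Myh3 was not tested.

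Myl12a, a regulatory chain of nonmuscle myosin, rose at both later ages. Its normalized counts were 5291, 6996 and 5550 at 2 months, 11939, 10885 and 10106 at 20 months, and 13539, 12987 and 13094 at 28 months. The ranges of the 3 ages did not overlap, and the order of the levels was that of the ages. The log2 change was 0.89 ± 0.102 at 20 months (1.86-fold, adjusted p = 0.00015) and 1.16 ± 0.102 at 28 months (2.24-fold, adjusted p = 2.18e-05). Both were called under each of the 22 other settings tried, with log2 changes of 0.81 to 1.01 and 1.08 to 1.28, and the first 2 replicates alone gave 0.91 and 1.12. Between 20 and 28 months the difference of 0.27 ± 0.102 had an unadjusted p of 0.0209 and an adjusted p of 0.366 (limma), and it was not called under any setting.

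Its neighbour Myl12b, also a nonmuscle regulatory chain, was not called at either age, and the difference between the changes of the pair was not tested. Myl12b had 695, 522 and 456 normalized counts at 2 months, 471, 447 and 395 at 20 months, and 467, 528 and 462 at 28 months. The ranges overlapped, and the changes of -0.33 (95% interval -0.65 to -0.0048) and -0.18 (95% interval -0.50 to 0.15) had adjusted p-values of 0.153 and 0.476. Without the libraries numbered 3 the changes of Myl12b were -0.39 (adjusted p = 0.165) and -0.28 (adjusted p = 0.376). Both genes lie on the minus strand of chromosome 17, Myl12b at 70973963 to 70990516 and Myl12a at 70993793 to 71002533 (GRCm38), with 3276 bases between them. Per kb, Myl12a was 80.1, 87.6 and 86.5% of the pair at 2 months, 93.0, 92.8 and 93.1% at 20 months, and 93.9, 92.9 and 93.7% at 28 months. The transcripts share 192 words of 50 bases, and 15.0% of the words of Myl12a and 33.9% of those of Myl12b occur elsewhere in the genome, so the split of reads between them is uncertain for that part.

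The essential chain of nonmuscle and smooth muscle myosin, Myl6, had 1948, 1866 and 1571 normalized counts at 2 months, 1459, 1468 and 1346 at 20 months, and 1399, 1840 and 1410 at 28 months. The 2-m libraries were all above the 20-m libraries, 28-m replicate 2 lay inside the 2-m range, and the changes of -0.33 (95% interval -0.58 to -0.07) and -0.22 (95% interval -0.47 to 0.04) had adjusted p-values of 0.0739 and 0.248. At 20 months it was called under 5 of 22 other settings, among them the batch term for the libraries numbered 3 (adjusted p = 0.0297), only the groups compared (adjusted p = 0.0460), and without 2-m replicate 3 or 28-m replicate 2, with adjusted p-values of 0.0256 to 0.526 over all 22. At 28 months it was called only without 28-m replicate 2 (adjusted p = 0.0452). Without the libraries numbered 3 the changes of Myl6 were -0.38 (adjusted p = 0.0982) and -0.25 (adjusted p = 0.309). Copies of 76.9% of its words occur elsewhere in the genome, the largest such share of the 10 genes, so reads that map to more than 1 place may be missing from its count. Myl9, the regulatory chain of smooth muscle, was at 1003 to 1692 normalized counts over all libraries and was not called in any comparison, nor was Myl10. Of the 4 heavy chains of nonmuscle and smooth muscle myosin, Myh10 (2.01-fold, adjusted p = 0.00112) and Myh14 (1.80-fold, adjusted p = 0.000105) rose at 20 months and again at 28 months against 2 months (2.27-fold and 1.97-fold), whereas Myh9 and Myh11 were not called. Of the 6 markers of smooth muscle, none was higher at a later age and 1 was lower at 20 months (Smtn; 0 without the libraries numbered 3), and they summed to 9883 to 12844 normalized counts at 2 months, 9058 to 10501 at 20 months and 9888 to 11546 at 28 months. The 6 fibroblast markers summed to 51087 to 106411, 21889 to 24764 and 21815 to 29894, with 3 of 6 lower at each later age and none higher. The collagen gene Col1a1 was at 11798 to 34207 normalized counts at 2 months and 1711 to 2657 later. The later ranges of Col1a2 and Col3a1 were also below those at 2 months. Those of the other fibroblast markers, Dcn, Lum and Pdgfra, overlapped between 2 months and each later age, so the sum does not stand for the whole list. Of 5 adipocyte markers 3 were lower at 20 months and 1 at 28 months, of 4 macrophage and 4 Schwann cell markers 1 each was lower at 20 months, and of 5 endothelial markers 1 was higher at 28 months. Without the libraries numbered 3, 3 fibroblast markers were lower at each later age, 3 adipocyte markers at 20 months and 0 at 28 months, and 1 Schwann cell marker at each, with 0 macrophage and 0 endothelial markers called. Of all genes, 7.13% were lower at 20 months, 6.24% lower and 7.53% higher at 28 months, and 3.21% and 2.39% lower without the libraries numbered 3, so the counts of 1 gene are no result about their lists. The part of these cells in the light chain values was not tested.

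Mylk2, the kinase of the skeletal regulatory light chain, fell at 28 months. It had 44879, 36633 and 32550 normalized counts at 2 months, 39876, 38259 and 37853 at 20 months, and 26762, 29122 and 25772 at 28 months. All 28-m libraries were below all libraries of both other ages, while the 20-m libraries lay inside the 2-m range. At 20 months the log2 difference from 2 months was 0.04 (95% interval -0.20 to 0.27), and at 28 months Mylk2 fell by 0.47 (SE 0.109, adjusted p = 0.0135, 1.39-fold lower). Against 20 months the 28-m level differed by -0.51 ± 0.109, with an unadjusted p of 0.000496 and an adjusted p of 0.0843 (limma), so it was not called in the main fit. It was called there under 6 of 22 other settings, among them DESeq2 (adjusted p = 0.00168) but not edgeR (adjusted p = 0.102). The others were limma with the replicate block (adjusted p = 0.0221), with the batch term for the libraries numbered 3 (adjusted p = 0.0234), with only the groups compared, and without 2-m replicate 1 or 2-m replicate 3. Over the fits without 1 library the adjusted p was 0.0335 to 0.341. The fall against 2 months was lost when the libraries were rescaled to the same sum (-0.43, adjusted p = 0.293; -0.42 and 0.0172 when Rn45s was left out of the sum) and without 2-m replicate 1, 28-m replicate 1 or 28-m replicate 3, and without the libraries numbered 3 it was -0.54 (adjusted p = 0.0290).

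Of the 14 other genes of light chain phosphorylation tested, 2 rose and 1 fell at 20 months, 1 rose and 1 fell at 28 months, and 1 was lower at 28 than at 20 months. As shares of the list, the counts against 2 months are near those of all genes given above (9.42 and 7.13% at 20 months, 7.53 and 6.24% at 28 months), and are no result about the list. The related kinase Mylk4 had 30416, 32147 and 25762 normalized counts at 2 months, 57103, 62298 and 50869 at 20 months, and 42002, 36419 and 34178 at 28 months. It rose by 0.95 ± 0.114 at 20 months (1.93-fold, adjusted p = 0.00021), fell by 0.60 from 20 to 28 months (adjusted p = 0.0473), and stood 0.35 above 2 months at 28 months (adjusted p = 0.0598). All 20-m libraries were thus above all others for Mylk4. Without the libraries numbered 3, 2 genes of the list rose and 1 fell at 20 months, 1 rose and 0 fell at 28 months, and 0 were called between 20 and 28 months, where Mylk4 was the gene called with all 9. Ppp1r12b, a targeting subunit of myosin phosphatase, was 1.59-fold higher at 20 months (adjusted p = 0.0416) and 1.63-fold higher at 28 months (adjusted p = 0.0365). The calmodulin genes fell in part, Calm2 at 20 months (1.39-fold, adjusted p = 0.00705) and Calm3 at 28 months (1.52-fold, adjusted p = 0.00561). The smooth muscle kinase Mylk was at 1511 to 2035 normalized counts in all libraries and the cardiac kinase Mylk3 at 1.44 to 43.4, and neither was called.

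By Pearson correlation of log2 values over the 9 libraries, the genes outside the 10 that were most like Myl2 were Atp2a2 (0.993), Myh7 (0.992) and Actn2 (0.990), and those most like Myl12a were Des (0.993), Sln (0.990) and Rp1 (0.989). Mylpf was most like Mfng (0.971), Ank1 (0.970) and Metrn (0.970), and Myl4 was most like Dom3z (0.914), Tle1 (0.912) and Adprhl2 (0.910). The 9 points share their ages and library preparation, so these values describe the libraries only. Des, the intermediate filament desmin, was itself 1.27-fold higher at 20 months (adjusted p = 0.0407) and 1.35-fold at 28 months (adjusted p = 0.0163), but without the libraries numbered 3 none of the 6 skeletal muscle fibre genes, Des among them, was called.

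The MBD-seq libraries gave a further readout at the start sites of these genes, as normalized counts of captured fragments in the 500-bp bin that holds the start. Each age and tissue was 1 pool of DNA from 3 mice. Capture from the muscle pools was made in 2 rounds, the table has 1 muscle column per age, and its header does not name the round, so which round or rounds gave the muscle values is unknown. Accordingly, differences between bins have no replicate check, and the 95% intervals given are exact Poisson intervals that cover counting error only. A bin with a value was found for 9 of the 10 genes, and the start bin of Myl6 is not analysed here. Captured DNA at the start of Myl1 was lower in muscle, which expresses it, than in T cells: 13.6 (7.64 to 22.5), 14.3 (8.34 to 22.9) and 14 (8.79 to 21.2) in muscle at 2, 20 and 28 months, against 39.6 (28.2 to 54.1), 54.8 (39.9 to 73.3) and 58.2 (42.3 to 78.1) in T cells. With all libraries rescaled to the same sum the order of Myl1 held, at 18.8, 21.4 and 26.4 in muscle against 33.8, 38.2 and 39.6 in T cells. On that scale muscle and T cells lay closer together. The intervals above are for the deposited scale, so they do not show that the tissues stand apart at the same sum. For Mylk2 the deposited values were 13.6, 10.1 and 12.7 in muscle against 39.6, 32.9 and 31.7 in T cells, but at the same sum the order turned at 28 months (18.8, 15.1 and 24 against 33.8, 22.9 and 21.6). The start of Myl3 was captured in both tissues, at 35.5, 32.8 and 26.8 in muscle and 46.7, 36.5 and 42.3 in T cells, with intervals that overlapped at each age, and at the same sum muscle was the higher tissue at all 3 ages (49, 49 and 50.3 against 39.8, 25.4 and 28.8). These are the starts of 1 RefSeq transcript per gene, and at that start Mylpf, Myl2, Myl4, Myl6b and Myl12a stayed at 5.29 or below in all 6 libraries. Some other annotated starts of these genes were captured, while the other start of Mylpf had 1.02 or less in all 6 libraries. A Myl2 start at 122093189 on chromosome 5 had 45.5, 44.6 and 26.1 in muscle and 90.3, 94.9 and 127 in T cells, and one at 122092724 had 21.8, 18.5 and 24.9 in muscle and 51.8, 49.9 and 56.8 in T cells. A second Myl12a start had 9.10, 4.21 and 12.7 in muscle and 46.7, 45 and 55.5 in T cells, the second Myl1 start had 1.82, 8.42 and 11.5 in muscle and 5.08, 11 and 0 in T cells, and the further Myl4 starts had 1.82 to 12.7 in muscle and 13.2 to 32.5 in T cells. At the same sum muscle was above T cells at 28 months at the Myl2 start at 122092724 (46.7 against 38.7), at 20 months at that at 122093189 (66.6 against 66.2), and at some ages at the second Myl1 start and the further Myl4 starts, so the order of the tissues at these starts depends on the scale. Which start the RNA of these genes came from cannot be read from counts per gene.

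Myl12b, with 1 annotated start, had reads there in muscle and none in T cells. Its start bin (chr17:70990501-70991000), which holds 49 CpGs, had 40.9 normalized counts (29.9 to 54.8) in 2-m muscle, 16 (9.63 to 25) in 20-m muscle and 7.01 (3.50 to 12.5) in 28-m muscle, that is 45, 19 and 11 reads. In T cells it had 0 reads at every age, with upper interval bounds of 3.74, 4.49 and 4.88 normalized counts. The level in muscle was thus lower in each later pool, beside an RNA level that was not called different. From 2 to 28 months 3 of the 9 start bins were higher in muscle, against 70.2% of the 18467 start bins of all genes. Beside this, 4.69% of start bins had no read in 28-m muscle against 33.9% at 2 months and 36.4% at 20 months. With 3 bins averaged 7 of 10 genes were higher (6 of the same 9, and Myl6, whose neighbouring bins have values), and with all libraries rescaled to the same sum 5 of 9, so the direction at these low levels depends on the window and the scale.

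**Figure D4:**
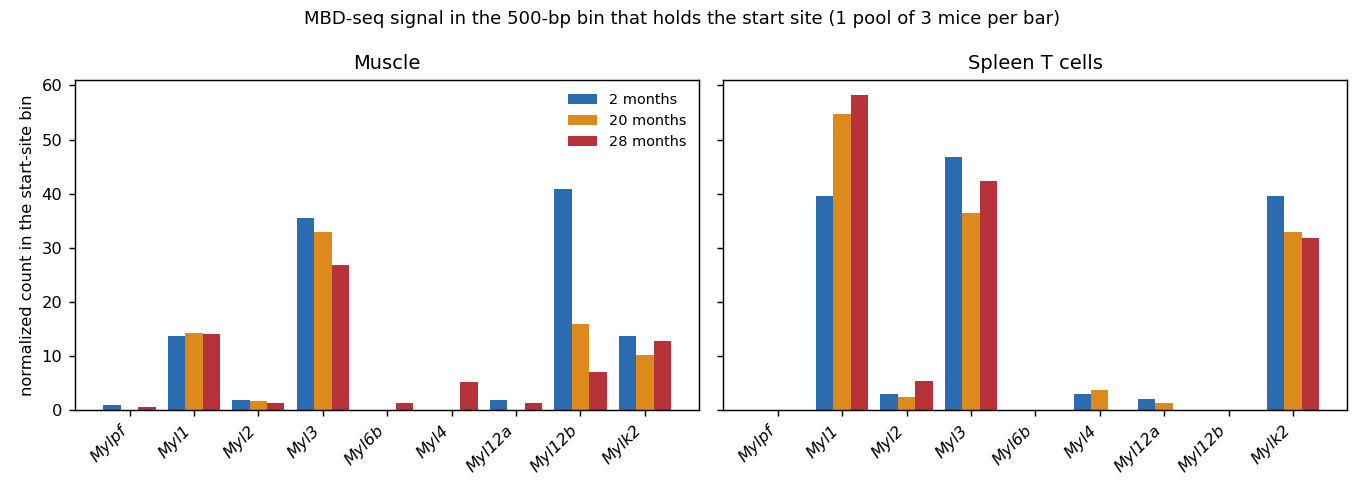
Normalized count in the 500-bp bin at the start site (vertical axis) of the 9 genes with a value, in muscle and spleen T cells, with 1 bar per age, each from 1 pool of 3 mice. Myl1 and Mylk2 are higher in T cells on this scale (for Mylk2 at 28 months not at the same sum), and Myl12b has reads in muscle and none in T cells and is lower in each later pool.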

How the data were processed

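RNA-seq of hindlimb muscle (3 mice per age, not pooled) and MBD-seq of muscle and spleen T cells (DNA of 3 mice pooled per age) were analysed. According to the paper's methods, the authors trimmed reads with Trim Galore, aligned RNA-seq reads with Hisat2 (the submitters' processing notes name TopHat) and MBD-seq reads with Bowtie2 to mm10, counted them per refSeq gene with htseq-count (intersection-strict; strand setting not given in the sources used here) or per 500-bp bin with bedtools, and divided by DESeq2 size factors. The deposited values are therefore a signal, reads divided by 1 factor per library. Nonzero RNA values were whole multiples of 1 step per library in 100% of cases (tolerance 0.001 reads), which gave back the reads. The 5 rows that name no gene held 37.9 to 47.7% of the reads of a library and were left out.

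Values were compared as log2(value + 1) by limma-trend (limma 3.58.1, R 4.3.3; all 9 libraries, with age alone in the model), over genes with a mean of at least 10, with Benjamini-Hochberg adjustment over all of them. The scale understates changes of low genes. Permutation tests were exact and two-sided, with a smallest p of 0.1 for 3 against 3 libraries and 0.0119 for 3 against 6. Alternatives were a pseudocount of 5 or 0.1, a filter at a mean of 50 or none, quantile normalization, scaling to equal sums, a block for the replicate number, fits to the compared groups alone, count tests on the recovered reads (DESeq2 1.42.0, edgeR 4.0.16), and fits without each library in turn. Without the 3 libraries numbered 3, a batch term for them, and the same sum without Rn45s were chosen after seeing the data.

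All 10 members are named, with genes of fixed lists and, for Myl2, Mylpf, Myl4 and Myl12a, the 3 genes outside the 10 members with the highest Pearson r. The members and lists were chosen with earlier results of these data known. Coordinates, transcript lengths and sequences came from RefSeq on GRCm38.p6 (mm10), with the transcript of lowest accession number for each gene. Words were the 50-base stretches of that transcript, searched on both strands of the genome.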

Additional observations from a re-analysis of the deposited data

How the results depend on the processing

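The count of 5 members called at 20 months and at 28 months against 2 months, and over the mean of both, was 3 in each comparison after rescaling to the same sum (Myl2, Myl3 and Myl12a) and 2 in each without the 3 libraries numbered 3. At the same sum without Rn45s it was 5 in each, with no member lost. Leaving out 1 library gave 3 to 6 called members at 20 months, 2 to 7 at 28 months, 5 to 6 over the mean and 0 to 1 between 20 and 28 months, with the lowest counts without 20-m replicate 1 (3) and 28-m replicate 1 (2). Between 20 and 28 months the count was 1 (Mylk2) with the batch term, with only the groups compared and with DESeq2. Deviations of libraries of equal replicate number had Pearson r of -0.040 to 0.161 over genes, above 0.1 only among those numbered 3. Such low values cannot show that libraries of equal number have nothing in common, and whether they share a preparation was not tested. The replicate block gave 3000 calls over all genes at 20 months, against 2181 in the main fit. With the replicate block, 6 members were called at 20 months (Myl6 added, adjusted p = 0.0256), 6 at 28 months (Myl1 added, adjusted p = 0.0376), 6 over the mean and 1 (Mylk2) between 20 and 28 months. Over all genes tested, the 2181 calls at 20 months ranged from 586 to 3000, the 1814 at 28 months from 554 to 2529, the 50 between 20 and 28 months from 11 to 228, and the 2649 over the mean from 796 to 3370. The split of higher and lower calls at 28 months was 1183 and 589 at the same sum without Rn45s, against 992 and 822, and the cause was not tested.

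Of 870 values of single members under the alternatives, 791 kept their direction and their side of the threshold, 35 were no longer called, 27 became called and 17, none of them called, changed sign near 0. For Mylk2 at 20 months (0.04) these were -0.0942 with quantile normalization, -0.0539 without the libraries numbered 3 and -0.069 to 0.163 when leaving out 1 library. Between 20 and 28 months, Myl3 (-0.01) was 0.0153 at the same sum, 0.0827 with quantile normalization, 0.0133 without the libraries numbered 3, 0.0729 at the same sum without Rn45s and -0.25 to 0.19 when leaving out 1 library. Myl2 (0.03) was -0.0156 with edgeR, -0.0141 with DESeq2 and -0.20 to 0.26 when leaving out 1 library, Myl4 was -0.12 to 0.30 and Myl6 -0.0195 to 0.178. The log2 ratios of Myl2 to Mylpf and of Myl3 to Myl1 moved by less than the spread between libraries with a pseudocount of 0. The number of start sites with more captured DNA at 28 than at 2 months, 3 of 9, was 5 rescaled to the same sum and 7 of 10 with 3 bins averaged, or 6 of the same 9 without Myl6.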
